A study of Mus musculus with 8 samples.

Results

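The limb patterning transcription factors outside the Hox clusters were examined in skeletal cells of the mouse fracture callus. They are Pitx1, Tbx4, Tbx5, Prrx1, Prrx2, Shox2, Meis1, Meis2 and Lmx1b, and were taken as every probe set whose annotation gives exactly 1 gene symbol equal to one of these names. A probe set is a group of short array probes designed against one transcript sequence. The rule found 24 probe sets for the 9 genes, among 45037 probe sets that are not controls and 18193 genes. Prrx2 had 1 probe set and the other 8 genes had several.

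Expression was measured on 8 Affymetrix mouse arrays, 4 of skeletal stem cells (SSCs) and 4 of bone, cartilage and stromal progenitors (BCSPs), which lie downstream of SSCs in the skeletal lineage. Both populations were sorted without culture from femoral fracture calluses of male C57/Bl6 mice aged 10 to 12 weeks, after a bicortical fracture held by an intramedullary pin. All cells lacked CD45, Ter119, Tie2, 6C3 and Thy1 and carried CD51. SSCs carried CD200 and lacked CD105, and BCSPs carried CD105. The labels give callus of day 7 after fracture and the study's methods give day 10. According to the labels 10000 cells were sorted per population in each of 4 experiments, and each experiment gave 1 SSC array and 1 BCSP array. Both groups carry the same injury, and no array of unfractured bone or of a forelimb was analysed here.

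The measured value is an activity score from -100 (inactive) to 100 (active). It places each probe set within its own range over a large collection of public mouse arrays, and 0 is the threshold between low and high in that range. The score is not an amount of mRNA, so differences are given in points and no fold change was computed. Array medians lay between -34.2 and -24.8, and 29.0% to 31.0% of probe sets were above 0 on each array. Of 12 skeletal markers, 11 were measured and all 11 were above 0 on every array, with medians of 95.7 to 97.9 in SSCs and 97.2 to 97.6 in BCSPs. No marker of blood cells (12 measured) or skeletal muscle (10 measured) was above 0 on any array. Of 11 endothelial markers, Erg was above 0 on all 8 arrays and the other 10 on none. Of 7 nerve and Schwann cell markers, Pmp22 and S100b were above 0 on all 8 arrays, Prph on 2 and the other 4 on none. For a score near 0, a floor was taken from genes of unrelated tissues, as the 95th percentile of their scores on each array, and ranged from -13.0 to -2.59. In these bulk samples, fewer cells of a type and less RNA per cell cannot be told apart.

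Limb patterning factors are DNA-binding proteins that tell cells of the embryonic limb bud where they are. Pitx1 and its target Tbx4 act in the hindlimb bud and Tbx5 in the forelimb bud. Prrx1, Prrx2 and Shox2 act throughout or in the proximal part of the limb mesenchyme that forms the skeleton, Meis1 and Meis2 mark the cells nearest the trunk, and Lmx1b marks the dorsal side. The femur is a proximal bone of the hindlimb, and adult skeletal cells are known to keep part of the positional code of the embryo.

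The start regions of 4 of the genes are shown because these genes run from the most active of the 9 to one below 0 on every array. Shox2 was the most active, Prrx1 was above 0 on all arrays by 3 of its 6 probe sets, Meis2 was most active in 1 experiment, and Tbx4 was below 0 throughout. RefSeq (GRCm38.p6) gave a region of 250 bases before to 50 bases after an annotated start for 7 of the 9 genes. Pitx1 and Tbx5 are only named. The RefSeq gene span reaches further upstream for Tbx4 (from 85886367), Meis2 (to 116067537) and Prrx1 (to 163315145). Their regions therefore lie inside the gene span and not at its upstream end. Capitals mark the letters TATAAA, those of a TATA box, on either strand (read as TTTATA in Tbx4), or TAATTA, a core bound by many homeodomain proteins. Matches are by letters alone, and whether any acts as a TATA box was not tested.
Shox2, chr3:66981722-66982021, minus strand: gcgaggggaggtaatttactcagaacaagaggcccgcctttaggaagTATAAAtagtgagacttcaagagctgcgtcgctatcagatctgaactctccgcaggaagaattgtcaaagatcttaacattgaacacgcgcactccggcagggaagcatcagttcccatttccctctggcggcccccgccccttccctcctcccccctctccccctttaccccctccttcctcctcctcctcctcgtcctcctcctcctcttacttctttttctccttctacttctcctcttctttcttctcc
Prrx1, chr1:163313601-163313900, minus strand: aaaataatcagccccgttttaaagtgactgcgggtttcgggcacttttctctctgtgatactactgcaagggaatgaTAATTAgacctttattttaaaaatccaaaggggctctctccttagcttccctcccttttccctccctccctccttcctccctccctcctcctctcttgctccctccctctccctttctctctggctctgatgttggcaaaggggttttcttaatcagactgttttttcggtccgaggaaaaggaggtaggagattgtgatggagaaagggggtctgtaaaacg
Meis2, chr2:116064570-116064869, minus strand: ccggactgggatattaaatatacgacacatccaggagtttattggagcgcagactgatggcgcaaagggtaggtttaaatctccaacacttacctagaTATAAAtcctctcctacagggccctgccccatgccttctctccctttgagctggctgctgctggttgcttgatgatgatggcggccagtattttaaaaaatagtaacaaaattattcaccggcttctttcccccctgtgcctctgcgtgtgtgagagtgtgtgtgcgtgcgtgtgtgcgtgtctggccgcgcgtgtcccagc
Tbx4, chr11:85896515-85896814, plus strand: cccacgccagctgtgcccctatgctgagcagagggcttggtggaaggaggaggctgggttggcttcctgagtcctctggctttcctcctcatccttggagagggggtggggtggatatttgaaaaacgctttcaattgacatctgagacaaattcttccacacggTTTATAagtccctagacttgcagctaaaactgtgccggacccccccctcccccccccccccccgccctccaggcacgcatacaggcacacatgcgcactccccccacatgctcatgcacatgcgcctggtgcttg

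TATAAA was found in 3 of the 7 regions, at 203 bases before the start in Shox2, 152 in Meis2 and 85 in Tbx4, and in 13.6% of all 32851 RefSeq start regions of that length. TAATTA was found in Prrx1 alone of the 7, at 173 bases before the start, and in 5.29% of all regions. Both strands were searched for each motif. The T-box letters GGTGTGA (3.98% of all regions), the MEIS letters TGACAG (19.2%) and the PITX letters TAATCC (7.06%) were in none of the 7. Base composition ran from 47.7% G and C with 6 CpG in Prrx1 to 70.3% with 28 CpG in Prrx2, against medians of 52.7% and 7 CpG over all regions. Thus, in these regions, the most active gene and a gene below 0 on every array both held the TATA letters. The paralogs Prrx1 and Prrx2, both active, lay at opposite ends of base composition.

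By each gene's top probe set (the highest mean over the 8 arrays), 4 of the 9 genes were above 0 on all 8 arrays (Shox2, Prrx1, Prrx2 and Meis2), 2 were above 0 on none (Tbx4 and Tbx5) and Pitx1, Meis1 and Lmx1b were above 0 on some. Over all genes, 25% were above 0 on all 8 arrays and 43.5% on none. Of the 24 probe sets, 8 were above 0 on all arrays and 9 on none, against 16.1% and 49.5% of all probe sets. The median score of the 9 genes over all arrays was 27.9, against -18.4 for all genes. From high to low the order of mean scores was Shox2, Prrx1, Pitx1, Prrx2, Meis2, Meis1, Lmx1b, Tbx4 and Tbx5. Only Shox2 and Prrx1, and Meis2 and Meis1, were neighbours whose ranges over the 8 arrays did not overlap, and each score is relative to its own probe set, so that this is no order of mRNA amounts.

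**Figure D1:**
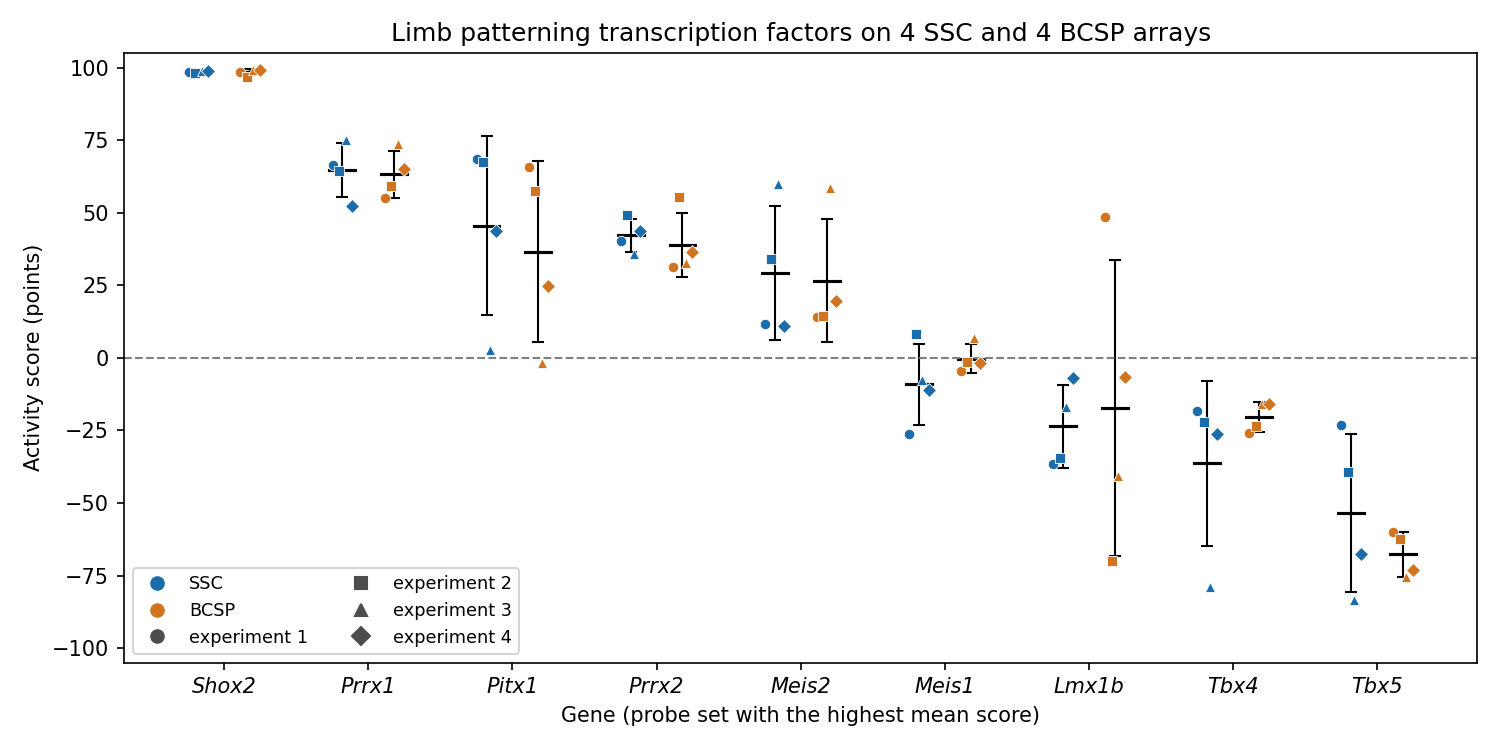
Activity score (points, vertical axis) of each gene's top probe set, on 4 SSC arrays (blue, left) and 4 BCSP arrays (orange, right). Symbols show the experiment, bars the mean and SD (n = 4), and the dashed line the threshold of 0. Shox2 lies at 96.7 to 99.1 on every array, while Tbx4 and Tbx5 lie below 0 on every array.

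Among the identity factors, Pitx1, the hindlimb selector that switches on Tbx4, was active on 7 arrays. Its higher probe set (1449488_at) scored 68.5, 67.4, 2.64 and 43.7 in SSCs of experiments 1 to 4, against 65.8, 57.5, -1.82 and 24.7 in BCSPs. The populations overlapped throughout, and within each experiment they were close: the SSC score was 2.64 to 19.0 points higher than the BCSP score in all 4 experiments. The mean was 45.6 ± 30.8 in SSCs and 36.6 ± 31.1 in BCSPs (SD, n = 4 each), a difference of 8.99 points (95% interval -33.4 to 51.4, limma over all probe sets). An exact two-sided permutation test gave p = 0.686 over the 70 assignments of arrays and p = 0.125 over the 16 exchanges within experiments, which is the smallest value that these exchanges can give. The lower probe set (1419514_at), listed for the same transcript, scored -17.1, 12.7, -54.5 and -6.00 in SSCs and -16.1, 15.0, -33.0 and -28.6 in BCSPs. The pair of Pitx1 probe sets thus differed by 57.0 points on average, and the activity of Pitx1 rests on the higher of them.

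Tbx4, the T-box factor of the hindlimb bud and a target of Pitx1, was below 0 on every array by both of its probe sets. The higher (1456033_at) scored -18.5, -22.0, -78.9 and -26.3 in SSCs and -25.9, -23.6, -16.1 and -16.1 in BCSPs. The SSC array of experiment 3 stood apart, and the other 7 arrays lay between -26.3 and -16.1. The means were -36.4 ± 28.5 in SSCs and -20.4 ± 5.10 in BCSPs (SD, n = 4 each; difference -16.0, 95% interval -50.9 to 18.9, limma). An exact permutation test gave p = 0.286, the smallest among the 9 genes, and without experiment 3 the difference was -0.40 points. The other probe set (1426321_at) averaged -28.3 ± 10.0 in SSCs and -33.5 ± 14.2 in BCSPs (SD, n = 4 each).

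Tbx5, the T-box factor that starts forelimb outgrowth, was the lowest of the 9 genes. Its higher probe set (1425694_at) scored -23.3, -39.4, -83.4 and -67.6 in SSCs and -60.2, -62.3, -75.4 and -73.2 in BCSPs. The SSC scores were more scattered than the BCSP scores, with means of -53.4 ± 27.1 in SSCs and -67.7 ± 7.64 in BCSPs (SD, n = 4 each), and the difference of 14.3 points had a 95% interval of -15.3 to 43.9 (limma). The exact permutation test gave p = 0.40. The other probe set (1425695_at) averaged -65.2 ± 15.4 in SSCs and -62.0 ± 19.6 in BCSPs (SD, n = 4 each). No Tbx4 or Tbx5 value was above the floor of unrelated tissues on its array, whereas the higher Pitx1 probe set was above it on all 8 arrays.

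Shox2, a homeodomain factor needed for growth of the proximal limb bones through its action on cartilage, was at the upper end of the scale. Its higher probe set (1438042_at) scored 98.5, 98.2, 98.9 and 98.8 in SSCs and 98.6, 96.7, 99.1 and 99.1 in BCSPs. This placed it above 98.5% to 99.45% of the probe sets on the same array. The means were 98.6 ± 0.295 in SSCs and 98.4 ± 1.12 in BCSPs (SD, n = 4 each), and the difference of 0.238 points had a 95% interval of -3.54 to 4.02 (limma). The score levels off at 100, so a difference in mRNA between populations would be compressed here. The other probe set (1420559_a_at) was also above 0 on all arrays, with 88.8, 94.5, 75.5 and 93.0 in SSCs and 82.9, 98.0, 80.4 and 83.2 in BCSPs.

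Prrx1 and Prrx2 are paired-related homeodomain factors of limb mesenchyme, and Prrx1 is widely used as a marker of limb-derived skeletal progenitors. The highest Prrx1 probe set (1439774_at) scored 66.6, 64.3, 75.0 and 52.5 in SSCs and 55.0, 59.3, 73.5 and 65.0 in BCSPs. Both populations covered nearly the same range, with means of 64.6 ± 9.30 in SSCs and 63.2 ± 8.01 in BCSPs (SD, n = 4 each). The difference was 1.39 points (95% interval -13.0 to 15.8, limma). The next probe sets, 1425528_at (62.3 ± 12.0 in SSCs and 65.4 ± 7.44 in BCSPs) and 1425526_a_at (52.2 ± 3.74 in SSCs and 53.8 ± 5.51 in BCSPs), were likewise above 0 on all 8 arrays (SD, n = 4 each).

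The other Prrx1 probe sets did not follow. The fourth (1432129_a_at) averaged 16.1 ± 15.7 in SSCs and 11.9 ± 9.92 in BCSPs and was above 0 on 6 arrays, all but those of experiment 4. The lowest, 1425527_at (-33.8 ± 8.99 in SSCs and -36.3 ± 18.7 in BCSPs) and 1458004_at (-30.1 ± 20.8 in SSCs and -47.6 ± 37.2 in BCSPs), were above 0 on none (SD, n = 4 each). Of these 6, 3 probe sets are listed for one and the same sequence record, and their means span 98.9 points. The position of each on the transcript was not given in the sources.

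Prrx2, on a single probe set (1432331_a_at), scored 40.3, 49.1, 35.8 and 43.6 in SSCs and 31.2, 55.3, 32.8 and 36.4 in BCSPs. All values lay well above 0 and the SSC range fell inside the BCSP range. The means were 42.2 ± 5.60 in SSCs and 38.9 ± 11.1 in BCSPs (SD, n = 4 each), with a difference of 3.31 points (95% interval -15.9 to 22.5, limma).

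Meis1 and Meis2 are TALE homeodomain factors, which bind DNA together with Pbx and Hox proteins and specify the proximal segment of the limb. Meis2 was the more active. Its highest probe set (1457632_s_at) scored 11.7, 34.1, 59.9 and 11.0 in SSCs and 14.0, 14.6, 58.4 and 19.5 in BCSPs, and the next (1417129_a_at) scored 0.80, 18.2, 55.2 and 4.71 in SSCs and 1.38, 14.6, 47.4 and 25.6 in BCSPs. Both were above 0 on all arrays and both peaked on the SSC and the BCSP array of experiment 3. The highest averaged 29.2 ± 23.2 in SSCs and 26.6 ± 21.3 in BCSPs (SD, n = 4 each; difference 2.56, 95% interval -31.8 to 36.9, limma). Of the remaining probe sets, 1447861_x_at was above 0 only in experiment 3, with 29.1 in SSCs and 34.5 in BCSPs against -15.5 to -8.00 elsewhere. The lowest, 1440091_at, was above 0 on none and reached its highest values, -6.26 in SSCs and -1.73 in BCSPs, in the same experiment.

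Meis1 lay near the threshold. Its highest probe set (1450992_a_at) scored -26.2, 8.07, -7.52 and -11.1 in SSCs and -4.70, -1.54, 6.98 and -1.81 in BCSPs. It was above 0 on 1 array of each population and above the floor of unrelated tissues on 6 of 8, with means of -9.18 ± 14.1 in SSCs and -0.268 ± 5.04 in BCSPs (SD, n = 4 each). The difference was -8.91 points (95% interval -37.9 to 20.1, limma). The other probe sets were below 0 throughout, 1459423_at at -58.4 ± 29.3 in SSCs and -60.7 ± 23.0 in BCSPs and 1443260_at at -68.6 ± 23.3 in SSCs and -54.7 ± 22.2 in BCSPs (SD, n = 4 each). The last of these was lower in SSCs in all 4 experiments, by 8.17 to 25.0 points, with an exact permutation p of 0.40 over all assignments of arrays and 0.125 within experiments.

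Lmx1b, the LIM homeodomain factor of the dorsal limb, induced there by Wnt7a, was the most variable of the 9 genes. Its higher probe set (1421769_at) scored -36.5, -34.4, -16.8 and -6.94 in SSCs and 48.6, -70.1, -40.7 and -6.55 in BCSPs. The BCSP array of experiment 1 was the only one above 0, and the BCSP values spanned the whole 119 points of the gene. The other probe set (1441729_at) scored -43.0, -2.82, -73.4 and -43.4 in SSCs and 47.3, -66.6, -72.0 and 38.0 in BCSPs. Both probe sets were thus highest on the BCSP array of experiment 1 and low on the BCSP array of experiment 2, and neither was above 0 on any SSC array. The means of the higher one were -23.7 ± 14.2 in SSCs and -17.2 ± 51.0 in BCSPs (SD, n = 4 each; difference -6.50, 95% interval -60.2 to 47.2, limma). The median of the nerve and Schwann cell markers was -21.5, -53.6, -25.8 and -63.4 on the BCSP arrays of experiments 1 to 4. It was -49.4 to -35.4 on the SSC arrays. It was thus nearly as high on the BCSP array of experiment 3, where both Lmx1b probe sets were low, as on that of experiment 1. The median of the genes of unrelated tissues was also highest on the BCSP array of experiment 1, at -33.7. The part of these markers in the Lmx1b scores was not tested.

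**Figure D2:**
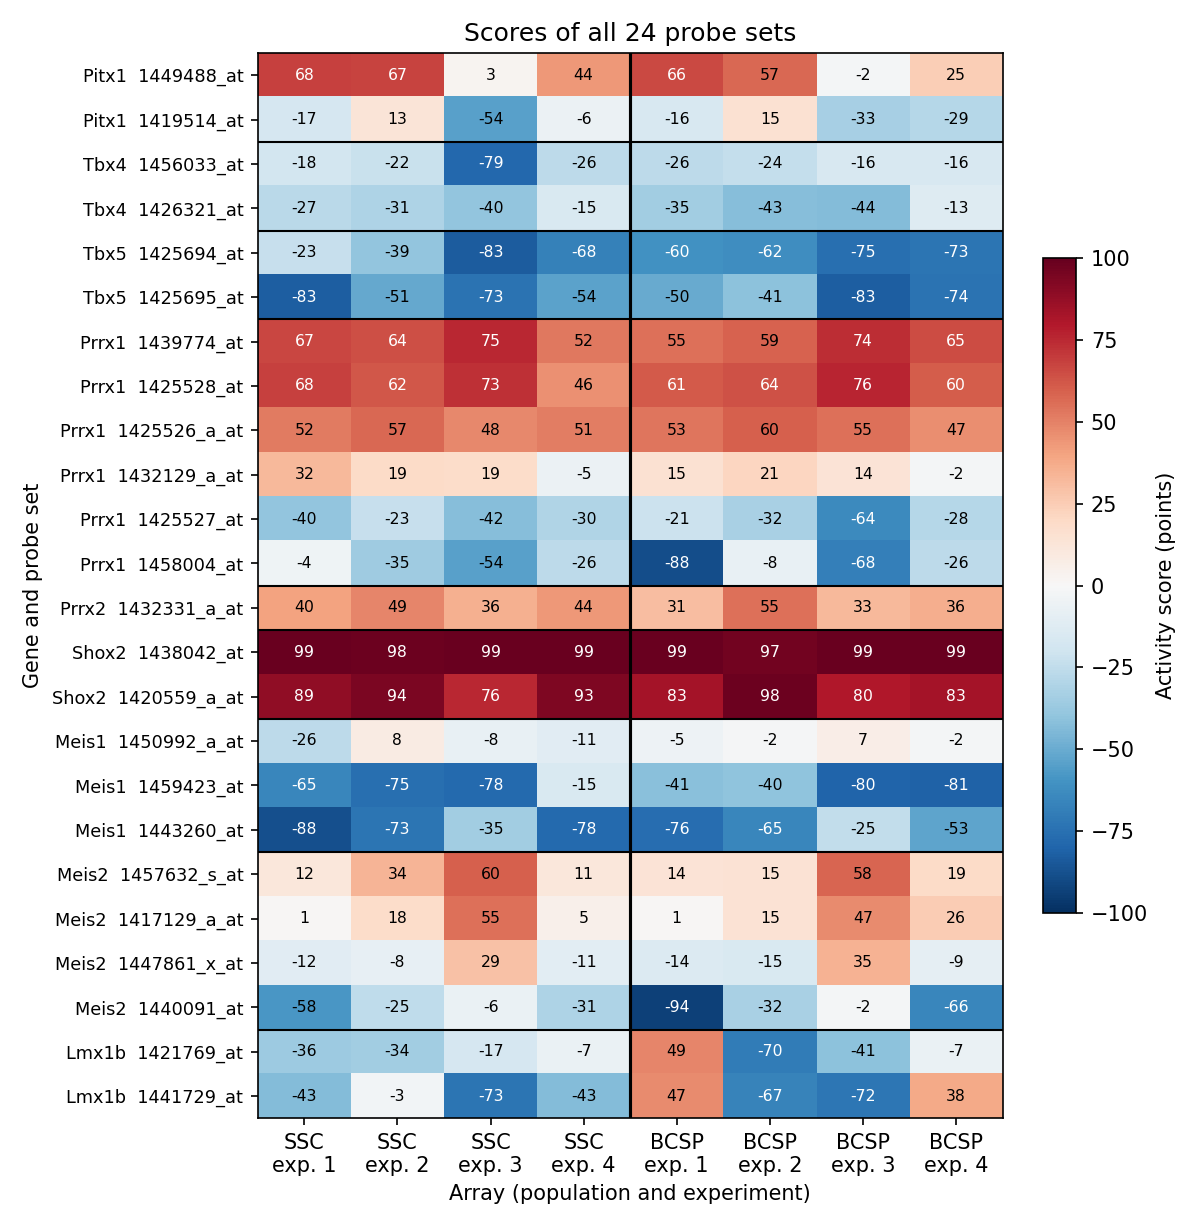
Activity score (points, colour scale from -100 to 100, values rounded to whole points in the cells) of all 24 probe sets (rows) on the 4 SSC and 4 BCSP arrays (columns). Probe sets of Shox2, Tbx4 and Tbx5 fall on the same side of 0, whereas those of Prrx1, Meis2 and Pitx1 fall on both sides.

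How far the probe sets of a gene stood apart differed among the genes. The means of the highest and the lowest differed by 2.50 points for Tbx4, 3.03 for Tbx5, 6.56 for Lmx1b and 11.4 for Shox2, whereas Meis1 and Pitx1 reached 56.9 and 57.0, Meis2 67.1 and Prrx1 103 points. Close means could hide gaps on single arrays. The Tbx5 probe sets scored -23.3 and -82.8 on the SSC array of experiment 1. Those of Lmx1b scored -6.55 and 38.0 on the BCSP array of experiment 4. The calls of Shox2 as above 0 and of Tbx4 and Tbx5 as below 0 were shared by both probe sets on every array, and Prrx2 had 1. Counted over every probe set of a gene, Shox2 and Prrx2 were the only 2 above 0 throughout.

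SSCs and BCSPs were then compared for all 9 genes. No difference passed the threshold in limma: 0 of the 9 genes and 0 of the 24 probe sets had an adjusted p below 0.05, and every adjusted p of a member was 1. The background was the same, since 0% of the 18193 genes and 0% of the 45037 probe sets were called. At an unadjusted p below 0.05 limma gave 465 genes (2.56%) and none of the 9, the methods' t-test gave 440 genes, and limma with the experiment as a block gave 949, with none of the 9 among any of them. SSC arrays lay entirely above or entirely below BCSP arrays for 0 of the 24 probe sets, against 0.653% above and 0.773% below for all probe sets. With 4 arrays against 4, the exact permutation test cannot go below p = 0.0286.

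The sizes were small beside the spread for most members. By the means 6 of the 9 genes were higher in SSCs and 3 (Tbx4, Meis1 and Lmx1b) lower, with a median difference of 1.39 points, against -0.998 points over all genes, of which 44.2% were higher in SSCs. The narrowest interval was that of Shox2, whose top probe set lies at the upper end of the scale, where differences are compressed. The interval of its other probe set (1420559_a_at) was -9.91 to 13.6 points. By the top probe sets Prrx1 followed Shox2, with -13.0 to 15.8 points. Those of Pitx1, Tbx4 and Lmx1b reached to 51.4, -50.9 and -60.2 points, and those of Tbx5, Meis1 and Meis2 to 43.9, -37.9 and 36.9 points, so that these arrays do not show the populations to be alike for them. When experiment was added to the limma model, the 95% interval became narrower for Pitx1 (-4.71 to 22.7 points), Meis2 (-16.2 to 21.4), Tbx5 (-9.59 to 38.2) and Meis1 (-34.6 to 16.8). The blocked intervals remained as wide as -51.9 to 19.9 points for Tbx4 and -58.9 to 45.9 for Lmx1b, and all of them included 0. By the highest probe set, only Pitx1 went the same way in all 4 experiments. The other Pitx1 probe set (1419514_at) did not share this. It was lower in SSCs in 3 experiments and higher in 1, with a mean difference of -0.568 points. For the top probe sets, leaving out single arrays turned the sign for Pitx1, Prrx1, Shox2, Meis2 and Lmx1b. The Pitx1 difference became -3.80 points without the BCSP array of experiment 3, which leaves the SSC array of that experiment unpaired. Without both arrays of an experiment it was 5.66 to 11.1 points.

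**Figure D3:**
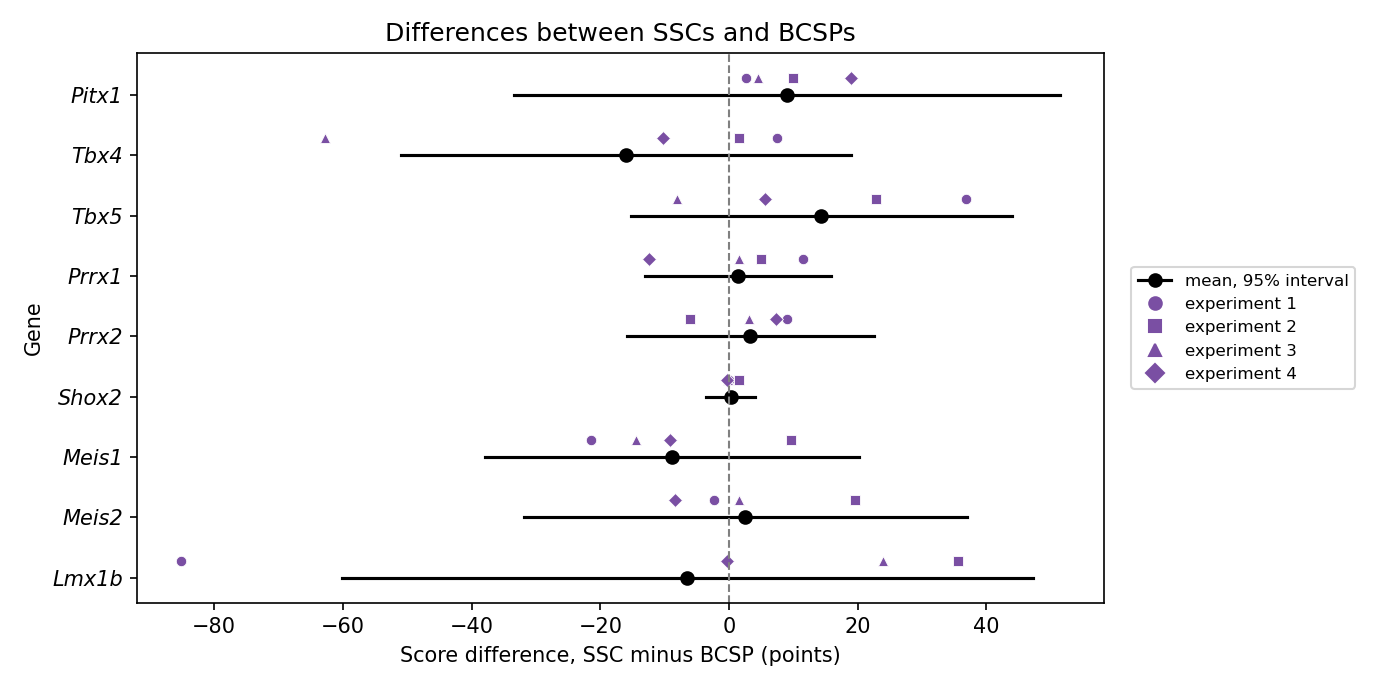
Score difference, SSC minus BCSP (points, horizontal axis), of the top probe set of each of the 9 genes. Black points and lines give the mean difference and its 95% interval, and purple symbols the difference within each of the 4 experiments. Every interval includes 0, and Pitx1 alone has all 4 experiments on the positive side.

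The scores followed the experiment more closely than the population in several members, as they did in most of all genes. For a gene, the median gap between the SSC and BCSP arrays of one experiment was 8.29 points over the 9 members, and the median gap between arrays of the same population in different experiments was 10.3 points. Over all genes these gaps were 13.5 and 19.5 points, and 68.9% of genes had the smaller gap within experiments, as did 5 of the 9 members. Among probe sets it was 18 of the 24 (75%), against 67.4% of all probe sets. Pitx1 was the clearest case, with gaps of 7.17 points within and 36.9 points between experiments. Meis2 followed, with 5.40 and 24.5 points.

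Experiment 3 was where Pitx1 and Meis2 departed from their other values, in opposite directions. Both arrays of experiment 3 were the lowest of the 8 for both Pitx1 probe sets and the highest of the 8 for all 4 Meis2 probe sets. Over the 24 probe sets, experiment 3 held both highest values for 7 and both lowest for 6, against 11.4% and 13.9% of all probe sets. Of those 7, 4 are the Meis2 probe sets, which share a gene. Without experiment 3, the top probe set of Pitx1 averaged 59.8 ± 14.0 in SSCs and 49.4 ± 21.7 in BCSPs. That of Meis2 averaged 18.9 ± 13.1 in SSCs and 16.01 ± 3.01 in BCSPs (SD, n = 3 each). By these probe sets Pitx1 was then above 0 on all 6 arrays, with a lowest value of 24.7, and Meis2 kept values of 11.0 to 34.1. The lower Pitx1 probe set ran from -28.6 to 15.05 on the same arrays. Of the other Meis2 probe sets, 1417129_a_at ran from 0.80 to 25.6, 1447861_x_at from -15.5 to -8.00 and 1440091_at from -93.55 to -25.1.

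An array control moved with this experiment. For actin, the score of the 3' control probe set exceeded that of the 5' one by 59.6 points on the SSC array and 64.9 points on the BCSP array of experiment 3, against 23.1 to 44.2 points on the other 6 arrays. Such control pairs are used, by the ratio of their signals, to judge the length of the labelled RNA. The gap given here is between scores, each relative to its own probe set, and is not that ratio. The same gap for Gapdh was 54.7 points on the SSC array and 49.1 points on the BCSP array of experiment 3 and 21.3 to 71.9 points over all arrays. The median score of the hybridization controls was 32.4 on the SSC array and 41.8 on the BCSP array of experiment 3. It was 62.5 on the SSC array and 70.9 on the BCSP array of experiment 1 and -24.2 to 3.77 on the others. The part of these controls in the scores of Pitx1 and Meis2 was not tested.

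**Figure D4:**
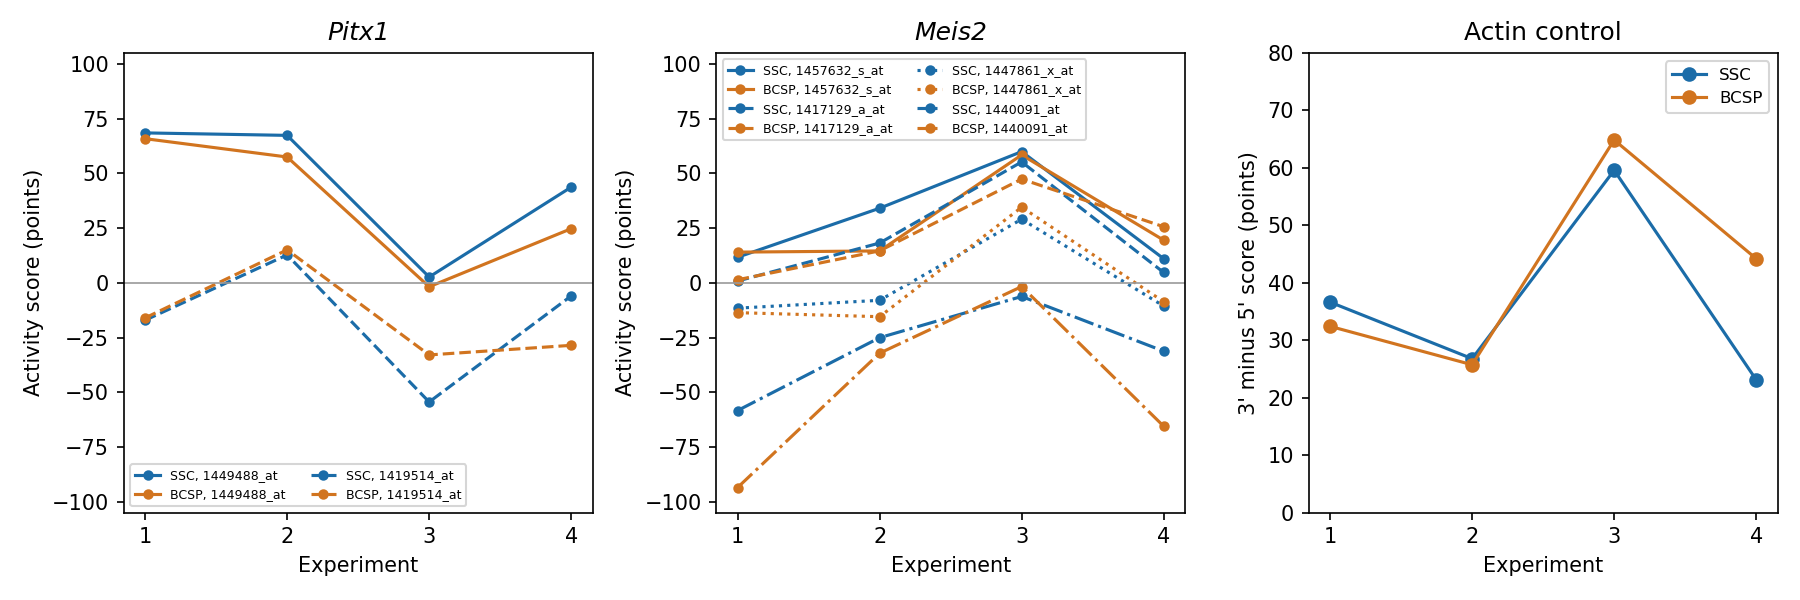
Left and middle, activity score (points) of both Pitx1 and all 4 Meis2 probe sets by experiment, in SSCs (blue) and BCSPs (orange), with line styles for the probe sets. Right, 3' minus 5' score of the actin control (points). In experiment 3 Pitx1 is at its lowest, Meis2 at its highest and the actin gap at 59.6 and 64.9 points.

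Related genes were taken from lists of the same families and of limb bud regulators. Each is given by its top probe set, and other probe sets of the same gene did not always share its call. In the TALE family, 15 of 16 genes were measured, of which 5 were above 0 on all arrays and 8 on none. The most active were Mkx, a tendon regulator (96.5 ± 1.01 in SSCs and 96.3 ± 1.13 in BCSPs), Irx5 (94.5 ± 5.66 in SSCs and 92.7 ± 7.40 in BCSPs), Irx3 (51.3 ± 14.8 in SSCs and 52.7 ± 21.2 in BCSPs), which acts with Irx5 in the proximal hindlimb, and Pbx3, a DNA-binding partner of Meis proteins (71.5 ± 9.50 in SSCs and 73.0 ± 12.5 in BCSPs; SD, n = 4 each). Meis3, the third Meis gene, was below 0 on all arrays. Meis2 and its partner Pbx3 were thus active on every array, while Meis1 was not.

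Among the other T-box genes, 13 of 15 were measured and 3 were above 0 on all arrays. Tbx15 scored 67.0 ± 7.35 in SSCs and 73.7 ± 10.4 in BCSPs and Tbx18 scored 68.0 ± 3.45 in SSCs and 71.9 ± 3.02 in BCSPs (SD, n = 4 each). Both are known from limb and skeletal mesenchyme, and by its top probe set each was active where Tbx4 and Tbx5 were not. Of the 2 probe sets of each, only 1 was above 0 on all arrays, whereas both probe sets of Tbx4 and of Tbx5 were below 0. The third was Mga, with a wide range of 0.83 to 89.4 in SSCs and 0.26 to 78.2 in BCSPs. Tbx3, which acts in the margins of the limb bud, was above 0 on 2 arrays.

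Of 18 other paired-type homeobox genes 11 were measured, and 0 were above 0 on all arrays. Alx4, which restrains hedgehog signaling in the anterior limb bud, was the highest, above 0 on 4 arrays with -35.2 to 48.8 in SSCs and -29.8 to 62.8 in BCSPs. The activity of Prrx1, Prrx2 and Shox2 on all arrays was not seen in any of these relatives. Of 17 other LIM homeobox genes and cofactors, Lmo4 (59.1 ± 10.8 in SSCs and 57.1 ± 12.2 in BCSPs) and Ldb2 (36.9 ± 8.65 in SSCs and 41.4 ± 5.14 in BCSPs; SD, n = 4 each) were above 0 on all arrays and 12 on none. Isl1, which acts upstream of the hindlimb programme, was below 0 throughout, at -26.7 to -15.1 in SSCs and -26.4 to -10.9 in BCSPs.

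Of 23 signals of the limb bud and their receptors, 9 were above 0 on all arrays, led by the receptors Fgfr3 (99.4 ± 0.384 in SSCs and 99.5 ± 0.281 in BCSPs) and Ptch1 (97.6 ± 0.740 in SSCs and 97.9 ± 0.626 in BCSPs), with the ligand Bmp2 (97.5 ± 1.83 in SSCs and 96.6 ± 2.56 in BCSPs) and the receptor Bmpr1a (88.6 ± 7.92 in SSCs and 89.6 ± 7.30 in BCSPs; SD, n = 4 each). Another 9 were above 0 on none. Fgf10, the mesenchymal signal that starts limb outgrowth and is a target of Tbx4 and Tbx5, was among these, with -45.6 to -19.7 in SSCs and -92.9 to -30.0 in BCSPs. Of 27 other limb bud transcription factors, 3 were above 0 on all arrays and 17 on none. The 3 were Gli3 (58.8 ± 9.74 in SSCs and 62.9 ± 10.6 in BCSPs), the hedgehog effector, Twist1 (41.5 ± 5.93 in SSCs and 47.6 ± 4.92 in BCSPs) and Dlx5 (38.9 ± 16.1 in SSCs and 48.0 ± 11.7 in BCSPs; SD, n = 4 each).

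None of these lists held a gene with an adjusted p below 0.05 between SSCs and BCSPs in limma, and every adjusted p in them was 1. At an unadjusted p below 0.05, limma gave Lhx4 and Lhx2 lower in SSCs and Tfap2b and Nr2f2 higher in SSCs by the means, all 4 below 0 on every array. With the experiment as a block, Lhx4 and Nr2f2 stayed below that level in limma, whereas the unadjusted p was 0.0632 for Lhx2 and 0.0691 for Tfap2b. Fgf10 was higher in SSCs in all 4 experiments, with an unadjusted limma p of 0.0688, or 0.0352 with the block. Vsx1, of the paired-type list, was lower in SSCs in all 4 experiments, with an unadjusted limma p of 0.138, or 0.032 with the block. The blocked adjusted p of each of these genes was 0.928. Of 6 Hoxc genes of the hindlimb and the forelimb 5 were measured (all but Hoxc11), and 3 were above 0 on all arrays. These were Hoxc8 (70.2 ± 12.4 in SSCs and 70.9 ± 12.2 in BCSPs), Hoxc9 and Hoxc10. Hoxc9 had 48.0 ± 30.5 in SSCs and 54.4 ± 19.1 in BCSPs. Hoxc10 had 57.9 ± 7.76 in SSCs and 54.7 ± 11.9 in BCSPs (SD, n = 4 each for the 3 genes). Hoxc4 (16.7 ± 26.1 in SSCs and 39.9 ± 6.96 in BCSPs) was above 0 on 6 arrays and Hoxc5 (20.8 ± 33.8 in SSCs and 37.7 ± 36.5 in BCSPs; SD, n = 4 each) on 5.

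**Figure D5:**
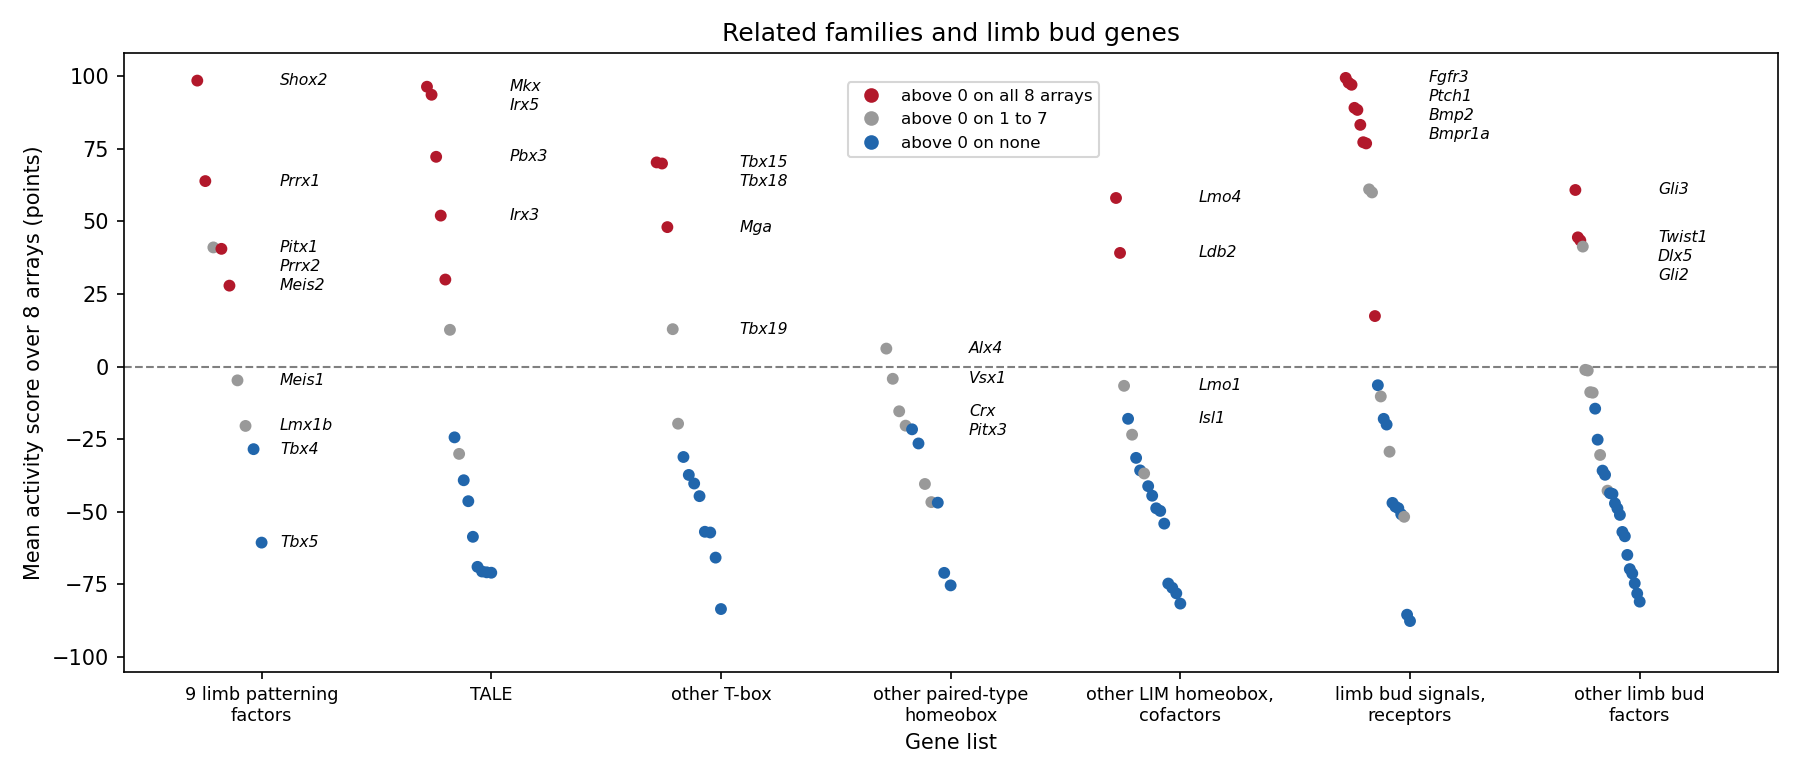
Mean activity score over the 8 arrays (points, vertical axis) of each gene of the 9 limb patterning factors and of 6 related lists. Colour shows whether the gene was above 0 on all arrays (red), on 1 to 7 (grey) or on none (blue), and names mark the highest of each list. Each related list except the paired-type one holds genes above 0 on all arrays.

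The genes whose scores lay nearest to each member were found by the mean absolute difference over the 8 arrays. Pitx1 was closest to Tmem238 (3.79 points), Ubtd1 and Mgat1. Prrx1 was closest to Rbms3 (3.21 points), Pex13 and Sdad1, and Prrx2 to Pbk (4.46 points), Mrpl9 and Dcp1a. Meis2 was closest to Pogk (5.64 points), Zfp281 and Nfib, and Meis1 to Mns1 (3.73 points), Pnldc1 and Bmp15. Tbx5 was closest to Il1bos (4.90 points), Lrrc61 and Amer2, and Tbx4 to 1700029H14Rik (6.99 points), Mab21l2 and Smim31. Lmx1b had no gene nearer than Myl6b, at 9.46 points, with Kif26a and 1700110K17Rik next, so its values were the least shared. No member was among the nearest genes of another, since the nearest pair, Pitx1 and Prrx2, lay 20.4 points apart. Shox2, at the end of the scale where many genes crowd, was left out of this search.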

How the data were processed

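RNA of SSCs and BCSPs was amplified by the authors in repeated rounds, hybridized to Affymetrix mouse arrays and normalized on Gene Expression Commons against a common reference of public mouse arrays. The deposited table holds 1 activity score per array for 45101 probe sets, with a range of -100.03 to 100. The step from probes to probe sets was not given in the sources. Gene names come from the annotation of the array platform, which gives 34958 of them 1 gene symbol and 932 several, and does not list 9211. Matching to RefSeq changed 0 symbols, and 64 controls entered no test.

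For each gene the probe set of highest mean over the 8 arrays stood for the gene. SSCs and BCSPs were compared on the score with limma 3.58.1 in R 4.3.3 (lmFit and eBayes with trend, no block), over all genes and over all probe sets, with Benjamini-Hochberg adjustment at 0.05. The intervals are those of the fit over probe sets. An exact two-sided permutation test over arrays was added for single genes. All 24 probe sets of the 9 genes are described, with up to 4 genes of smallest p and up to 4 of highest mean score from each related list, and the 3 nearest genes of each member. The members and the lists were chosen with earlier results of these data known.

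By the labels each experiment has 1 array of either population. The title and the description of the BCSP array of experiment 2 give it different numbers, of which the description's, BCSP 2, was used. Across genes, the deviations of an SSC and a BCSP array from their population means had correlations of 0.399, 0.177, 0.572 and 0.183 when both came from experiment 1, 2, 3 or 4, and of at most 0.122 otherwise, so the numbers were taken to pair the arrays. P-values measure the spread between these arrays. The labels do not say whether an experiment was 1 mouse or a pool, while the study's figure legend gives the arrayed cells as coming from 4 different mice. The number of arrays limits the precision. Alternatives were the experiment as a block, quantile normalization, centring, array weights, eBayes without trend, a filter on low scores, the methods' t-test, averaging over a gene's probe sets, other thresholds of activity and leaving out each array. Leaving out both arrays of each experiment in turn, with and without the block, was added after seeing the data.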

Additional observations from a re-analysis of the deposited data

Results flagged for a closer look

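In 5 of the 48 groups of 4 arrays examined for the 24 probe sets, 1 array stood far from the other 3 by Dixon's test, where chance gives about 1 in 20. For Tbx4 (1456033_at) it was the SSC array of experiment 3, at -78.9 against -26.3 to -18.5 on the other SSC arrays. For Shox2 (1420559_a_at) it was the BCSP array of experiment 2, at 98.0 against 80.4 to 83.2 on the other BCSP arrays. The other 3 were Meis2 in experiment 3. Its probe set 1457632_s_at scored 58.4 on the BCSP array, against 14.0 to 19.5 on the other BCSP arrays. Its probe set 1447861_x_at scored 29.1 on the SSC array, against -11.6 to -8.00 on the other SSC arrays, and 34.5 on the BCSP array, against -15.5 to -8.64 on the other BCSP arrays.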

How the results depend on the processing

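No gene and no probe set was called between SSCs and BCSPs in the limma fit or under any alternative run, the paired fit with the replicate block included (0 genes and 0 probe sets). Genes at an unadjusted p below 0.05 ran from 84 with the filter on low scores through 949 with the block to 1237 with the block and without experiment 1. The smallest adjusted p of a member was 0.765 (Lmx1b, with the block and without experiment 1), and the smallest unadjusted p was 0.0690 (Tbx5). Of the 9 differences, SSC minus BCSP, 4 (Tbx4, Tbx5, Prrx2 and Meis1) kept their sign under every alternative run and 5 did not. Leaving out single arrays gave -3.80 to 23.3 points for Pitx1, negative only without BCSP replicate 3, and -2.09 to 5.43 for Prrx1, negative without SSC replicate 3 or BCSP replicate 1. It gave -0.311 to 0.482 for Shox2, negative without BCSP replicate 2, -7.70 to 13.2 for Meis2, negative without SSC replicate 3, BCSP replicate 1 or BCSP replicate 2, and -24.1 to 15.4 for Lmx1b, positive without BCSP replicate 1. With array weights the difference was -1.16 for Prrx1 and 1.65 for Lmx1b. Without both arrays of experiment 1 it was -2.0 for Prrx1 and 19.7 for Lmx1b, and without those of experiment 2 it was -0.190 for Shox2 and -3.10 for Meis2, with the same values under the replicate block. The cause was not tested.

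The 4 genes above 0 on all 8 arrays became 2 (Shox2 and Prrx2) when every probe set of a gene had to be above 0. The count was 3 above 20 points or with the mean of probe sets, 4 after quantile normalization, 5 above the floor of unrelated tissues, 4 to 5 without single arrays, 5 without experiment 3 and 4 without each of the other experiments.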
